A study of Mus musculus with 9 samples.

Results

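The enzymes that make and inactivate prostaglandins were examined in the lateral nasal gland, which secretes odorant-binding proteins into the nasal cavity of the mouse, on 9 Affymetrix arrays. The set named 8 genes, Ptgds, Hpgds, Ptges, Ptges2, Ptges3, Ptgs1, Ptgs2 and Hpgd. Every probe set whose only annotated symbol was one of these names was taken separately, which gave 10 of 22626 probe sets, covering 6 of the 8 genes (of 12393 genes named in this way). No probe set carried Ptgs1 as its only symbol, and both probe sets for Ptges3 are also annotated to a pseudogene of it. The set was chosen by the measured signals of Ptgds, whose difference between null and wild-type glands had already been seen in these data, so its null values are given as a description, with no test.

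The 3 groups were all males aged 2 to 3 months. There were 2 arrays of wild-type 129/Sv glands, 4 arrays of wild-type B6 (C57BL/6) glands and 3 arrays of Cyp2g1-null glands on a mixed background of 129/Sv and C57BL/6, with glands of 10 mice pooled for each array. Neither wild-type strain has the mixed background of the null line, the labels name no wild-type littermates, and they do not say how the null allele was made. In a pool of whole glands, fewer cells of a type and less RNA per cell cannot be told apart.

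Prostaglandins are lipid signals made from arachidonic acid. Phospholipases release the acid from membranes, the cyclooxygenases Ptgs1 and Ptgs2 turn it into prostaglandin H2, and terminal synthases convert that intermediate into the individual prostaglandins. Prostaglandin D2 has a pair of unrelated synthases: Ptgds, a secreted lipocalin that also carries small lipophilic molecules, and Hpgds, a cytosolic enzyme of the glutathione transferase family found in mast cells and other blood-derived cells. Ptges, Ptges2 and Ptges3 are linked to prostaglandin E2, and Hpgd oxidises prostaglandins to less active products.

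Because the results turn on Ptgds, the sequence around its start is shown (RefSeq, GRCm38.p6, chr2:25469700-25469999, minus strand, 250 bases before to 50 bases after the annotated start). Capitals mark matches to 2 motifs searched on both strands, which do not overlap each other. The motifs were chosen after the sequence and earlier results of these data were seen.

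Ptgds: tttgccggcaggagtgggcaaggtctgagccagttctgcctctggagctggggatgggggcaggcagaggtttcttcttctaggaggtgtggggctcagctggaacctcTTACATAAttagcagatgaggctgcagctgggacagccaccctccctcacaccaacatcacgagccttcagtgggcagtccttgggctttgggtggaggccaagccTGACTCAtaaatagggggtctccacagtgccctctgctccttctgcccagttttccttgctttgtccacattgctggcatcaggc

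The capitals that come first are the D box TTATGTAA read on the other strand, the motif of the transcription factors Dbp, Tef and Hlf, and begin 141 bases before the start. It occurred in 0.938% of 32851 promoter windows of this length. The other capitals are the AP-1 element TGACTCA, the motif of Fos and Jun proteins, 35 bases before the start, which 5.2% of the windows held. Of the 8 genes, each with 1 window, Ptgds was the 1 with a match to either motif. As both were chosen with the Ptgds sequence seen, that is not a comparison among the genes. The E box CAGCTG also matched in this window, 154 and 117 bases before the start, as in 16.3% of all windows. The E box CACGTG and the TATA box TATAAA did not match there. Among the other genes CACGTG matched for Ptges2 and Ptgs2, and TATAAA and CAGCTG matched for Hpgd. The Ptgds window belongs to 1 annotated start, and the gene as listed by RefSeq reaches further upstream. The sequence is of the C57BL/6J reference and may differ in 129/Sv, and a match says only that the letters are present.

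Ptgds had a several-fold higher signal in the null glands than in either strain, on both of its probe sets. Probe set 1423859_a_at gave 680.4 and 1175.3 on the 129/Sv arrays, and 1257.4, 604.4, 632.2 and 1183.3 on the B6 arrays. On the null arrays it gave 4007.4, 6062.9 and 4278. The lowest null array was thus above the highest wild-type array, and null array 2 was the highest of all. The group mean was 927.8 ± 349.9 (SD, n = 2) for 129/Sv, 919.3 ± 349.1 (SD, n = 4) for B6 and 4783 ± 1117 (SD, n = 3) for the null glands.

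Probe set 1423860_at gave 178.2 and 450.4 on the 129/Sv arrays, 571.8, 226.6, 369.8 and 231.7 on the B6 arrays, and 1779.9, 2596.9 and 1410.1 on the null arrays. Again no null array overlapped a wild-type array. Over all tested probe sets, 365 of 12575 (2.90%) had every null array above every wild-type array. Signals were compared as log2(signal + 16), a scale that understates the change of dim probe sets. On this scale null minus B6 was 2.41 for 1423859_a_at (5.33-fold) and null minus 129/Sv was 2.37 (5.18-fold). For 1423860_at the differences were 2.46 (5.52-fold) and 2.65 (6.26-fold). Probe set 1423859_a_at exceeded the array median on 9 of 9 arrays. Probe set 1423860_at exceeded it on 4, the 3 null arrays and B6 array 1, so it entered the test mainly through the null group. Both comparisons use the same null arrays.

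**Figure D1:**
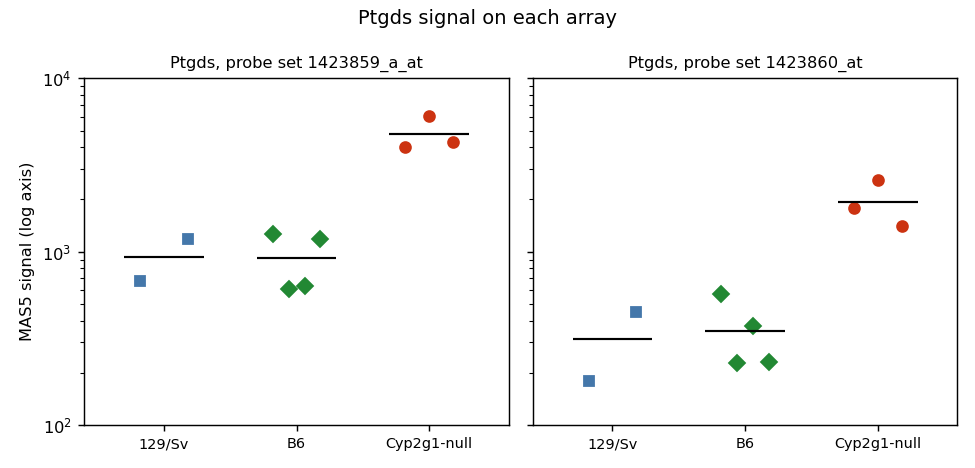
Ptgds MAS5 signal (log axis) on each array, by group, for its 2 probe sets; points are arrays and bars are group means. On both probe sets the 3 null arrays lie above all 6 wild-type arrays, while the 129/Sv and B6 arrays overlap.

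Leaving out null array 2, the highest of the null arrays, left the difference of 1423859_a_at at 2.23 against B6 and 2.19 against 129/Sv. Over the 9 fits that left out an array, the difference ran from 2.23 to 2.59 against B6 and from 1.99 to 2.76 against 129/Sv. The dimmer probe set depended more on the 129/Sv pair, with 2.01 against 129/Sv without 129/Sv array 1 and 3.28 without 129/Sv array 2.

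The strains themselves were compared with limma, with a Benjamini-Hochberg adjustment over all 12575 probe sets that exceeded their array's median on at least 2 arrays, at a threshold of 0.05. This comparison was not the basis for choosing Ptgds. B6 minus 129/Sv was -0.04 (SE 0.307, 95% interval -0.70 to 0.62, adjusted p = 0.967) for 1423859_a_at and 0.18 (SE 0.419, 95% interval -0.72 to 1.08, adjusted p = 0.88) for 1423860_at. No strain difference was detected, and the wide intervals do not show that the strains are alike.

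Of the 10 probe sets of the set, 5 passed the signal filter, both for Ptgds and 1 each for Ptges, Ptges2 and Hpgd. Without Ptgds, 0 of 3 were called against B6, against 129/Sv or against the mean of both strains in limma, and 1, 0 and 0 had an unadjusted p under 0.05. Over all probe sets the share called was 2.18% against B6, 2.04% against 129/Sv and 1.22% against the mean. For B6 against 129/Sv, 0 of 5 were called, with 1 at an unadjusted p under 0.05, beside 5.19% of all probe sets called, 2.92% higher and 2.27% lower in B6. The 8 probe sets outside Ptgds were also fitted with no signal filter. In this fit, over 22626 probe sets, 0 of 8 were called in any null comparison and 2, 0 and 1 had an unadjusted p under 0.05. The share of all probe sets called was 1.03%, 0.941% and 0.473%. Between the strains 0 of 10 were called in that fit, with 1 at an unadjusted p under 0.05, beside 2.58% of all.

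**Figure D2:**
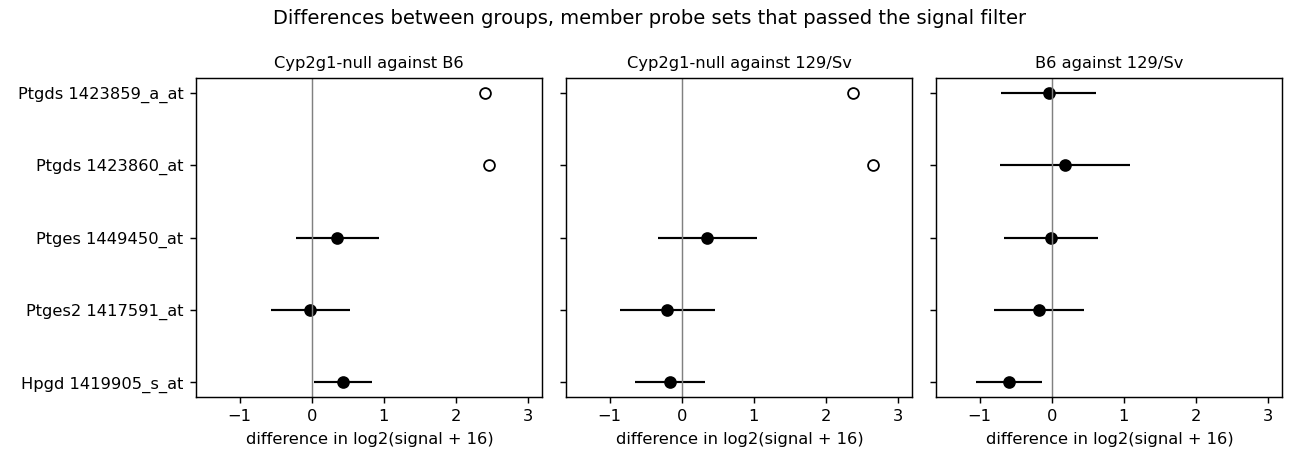
Difference in log2(signal + 16) between groups for the 5 probe sets that passed the signal filter, with 95% intervals from limma where the contrast was tested (filled) and no interval for the Ptgds null contrasts (open). The open Ptgds points lie between 2.37 and 2.65; among the tested intervals, those of Hpgd against B6 and between the strains leave out 0, and neither difference passed after adjustment.

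Hpgds, the other prostaglandin D synthase, did not exceed the array median on any array. Its signals were 363 and 121.5 on the 129/Sv arrays, 54.5, 234.8, 92.2 and 192.6 on those of B6, and 156.1, 222.6 and 275.1 in null arrays. The 3 groups overlapped throughout. In the fit without a filter null minus B6 was 0.69 (95% interval -0.53 to 1.92, limma adjusted p = 0.725) and null minus 129/Sv was 0.00 (95% interval -1.46 to 1.46, adjusted p = 1). These wide intervals do not show that Hpgds was the same in the groups.

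Ptgs2, the inducible cyclooxygenase and an immediate early gene, was also below the array median everywhere. Probe set 1417262_at had 61.4 and 4.8 on the 129/Sv arrays, 14.8, 98.7, 14.9 and 18.8 on those of B6, and 64.4, 353.5 and 83.7 in null arrays. Null array 2 was the highest by far, and the other null arrays lay within the wild-type range. Null minus the mean of both strains was 1.77 (95% interval 0.305 to 3.24) and did not pass in limma without a filter (adjusted p = 0.423). Probe set 1417263_at had 113.2 and 51.6 on the 129/Sv arrays, 61.8, 211.4, 217.9 and 41 on those of B6, and 68.7, 293.9 and 144.9 in null arrays. Here too null array 2 was the highest, and the difference was 0.59 (95% interval -0.76 to 1.94, adjusted p = 0.858).

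Null array 2 was also the highest array for 15 of 16 immediate early probe sets that passed the filter, genes that cells switch on within minutes of a stimulus. For other lists described below it was the highest for 4 of 11 nerve and glia and 3 of 14 macrophage and neutrophil probe sets. The counts were 2 of 7 for cilia, 1 of 7 for gland secretion and 1 of 18 for clock probe sets. They were 0 of 14 for stroma and 0 of 6 for meninges and choroid plexus. For olfactory neurons and mast cells they were 0 of 5 and 0 of 3. No share over all probe sets is given for these counts. The summed signal of the 16 immediate early genes was 90512 on null array 2, 44563 and 45867 on the other null arrays, and 31149 to 45412 on the wild-type arrays. Their part in the Ptgs2 and Ptgds values of that array was not tested.

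For the prostaglandin E synthases the null arrays overlapped both strains or lay within the wild-type range. Ptges, the inducible microsomal enzyme, had on probe set 1449450_at 372.3 and 510.2 on the 129/Sv arrays, 384.4, 535.7, 482.7 and 357.4 on those of B6, and 467.6, 626.4 and 601.9 in null arrays. The null arrays included the 2 highest values but overlapped both strains. Null minus B6 was 0.36 (SE 0.267, 95% interval -0.22 to 0.93, limma adjusted p = 0.58) and null minus 129/Sv was 0.35 (SE 0.319, adjusted p = 0.76). Its other probe set, 1449449_at, stayed under the array medians, with 313 and 374 in 129/Sv, 148.2 to 471.5 in B6 and 259.3 to 464.5 in null arrays.

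Ptges2, a membrane-associated enzyme, had 657.4 and 612.8 on the 129/Sv arrays, 442.9, 439.9, 816.9 and 607.2 on those of B6, and 469.3, 659.5 and 539.4 in null arrays. Null minus B6 was -0.02 (SE 0.256, 95% interval -0.57 to 0.53, limma adjusted p = 0.986). The null values lay inside the range of the B6 arrays. The probe sets annotated to both Ptges3, a cytosolic enzyme also known as the Hsp90 co-chaperone p23, and its pseudogene cannot be assigned to either. They were outside the rule, with signals of 7005 to 9727.8 on 1417998_at and 5929.8 to 7574.3 on 1460221_at over the 9 arrays. Null minus the mean of both strains was 0.12 and 0.03 (limma adjusted p = 0.706 and 0.942).

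Hpgd, the dehydrogenase that inactivates prostaglandins, was above the array median on every array with probe set 1419905_s_at. It had 4957.1 and 3423 on the 129/Sv arrays, 3712.9, 2839.4, 2757.7 and 1885.2 on those of B6, and 3669.3, 3459.8 and 3928.4 in null arrays. The null arrays were close to each other and lay between the lower B6 arrays and the higher 129/Sv array. Null minus B6 was 0.43 (SE 0.188, 95% interval 0.03 to 0.84, limma adjusted p = 0.308), and null minus 129/Sv was -0.16 (SE 0.225, adjusted p = 0.863). B6 minus 129/Sv was -0.595 (SE 0.213, 95% interval -1.05 to -0.14, adjusted p = 0.15). Among the alternatives tried, that strain difference passed only without B6 array 1 (-0.74, adjusted p = 0.0291). With an array left out it ran from -0.86 to -0.33, null minus B6 from 0.26 to 0.58, and null minus 129/Sv from -0.43 to 0.10, positive without 129/Sv array 1. The s_at type of this probe set can match several transcripts. Hpgd probe set 1419906_at was below the array median on every array, with 10.7 to 271.2 over all 9.

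**Figure D3:**
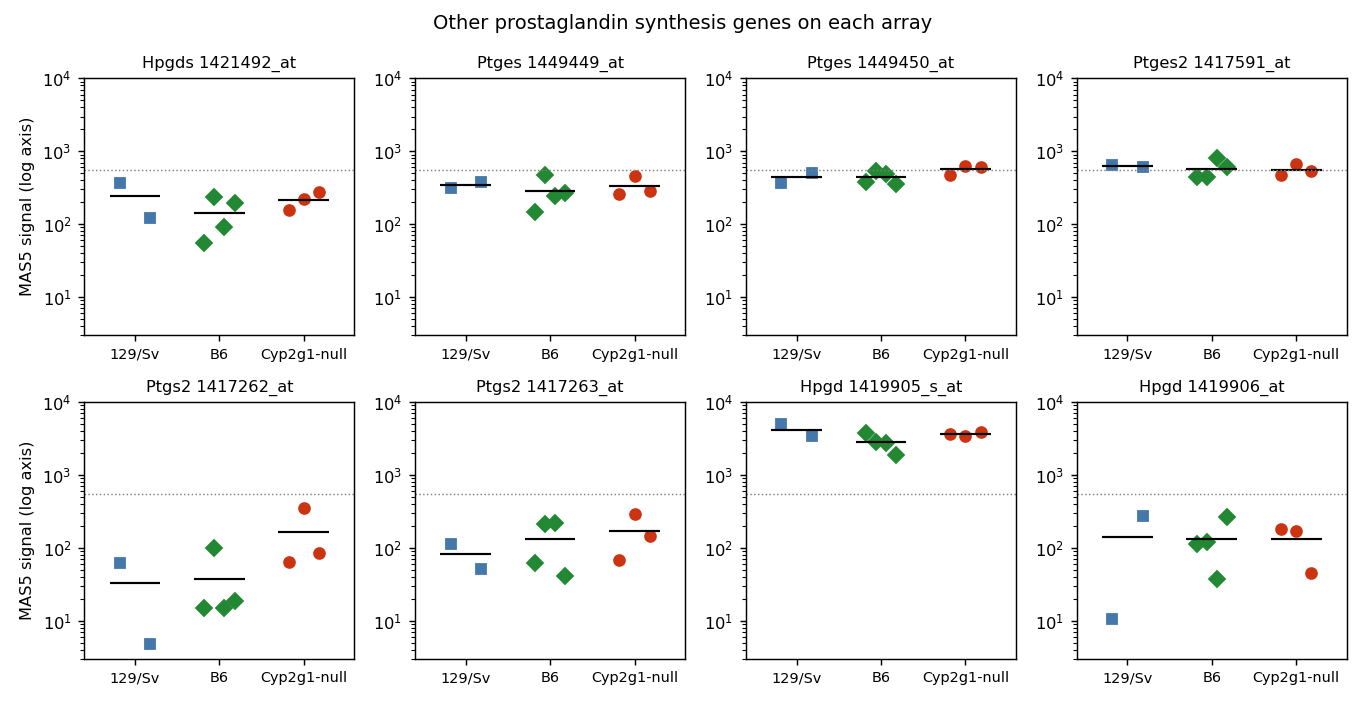
MAS5 signal (log axis) on each array for the 8 probe sets of Hpgds, Ptges, Ptges2, Ptgs2 and Hpgd; points are arrays, bars are group means and the dotted line is the highest array median, 550.05. Null and wild-type arrays overlap in all 8 panels, and the highest Ptgs2 point is null array 2 on both probe sets.

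The rest of the pathway was taken from 5 lists of 63 genes, of which 54 had a probe set with a single symbol (80 probe sets) and 23 had one that passed the filter (27 probe sets). Against B6, 0 of 27 were called higher and 1 lower, and the median difference was 0.06, beside 0.02 over all probe sets tested. Against 129/Sv 0 were called in limma, with 2 at an unadjusted p under 0.05 and a median of 0.14, beside 0.00 over all. Against the mean of both strains 0 were called higher and 1 lower, with a median of 0.01, beside 0.01 over all. Over all probe sets the shares called higher and lower were 1.11% and 1.07% against B6, 1.41% and 0.628% against 129/Sv, and 0.755% and 0.469% against the mean. For B6 against 129/Sv 0 were called in limma, with 5 at an unadjusted p under 0.05.

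The 1 probe set called was for Ptger4, the EP4 receptor for prostaglandin E2, which fell in the null glands. Probe set 1424208_at had 895.4 and 1053.5 on the 129/Sv arrays, 791.6, 1047.1, 924.4 and 865.1 on those of B6, and 560.7, 431 and 573.6 in null arrays. Every null array was below every wild-type array, as for 247 of 12575 probe sets (1.96%), and null array 2 was the lowest. Means were 974.4 ± 111.8 (SD, n = 2), 907 ± 108 (SD, n = 4) and 521.8 ± 78.87 (SD, n = 3). Null minus B6 was -0.78 (1.72-fold lower, SE 0.183, 95% interval -1.18 to -0.39, limma adjusted p = 0.0408).

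The Ptger4 difference from 129/Sv, -0.89, missed the threshold (SE 0.219, limma adjusted p = 0.056). Set against both strains averaged, the Ptger4 difference was -0.84 (SE 0.173, adjusted p = 0.0329). B6 minus 129/Sv was -0.10 (95% interval -0.55 to 0.34, adjusted p = 0.861). The direction held in every alternative tried for the 3 null comparisons. The call against B6 was kept in 1 of 9 fits that left out an array, without B6 array 1, and the adjusted p in those fits ran from 0.0278 to 0.179. With no signal filter the call was also lost (adjusted p = 0.0871). Another Ptger4 probe set, 1421073_a_at, did not exceed the array median on any array and averaged 80.85 in 129/Sv, 136.5 in B6 and 70.33 in null glands.

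**Figure D4:**
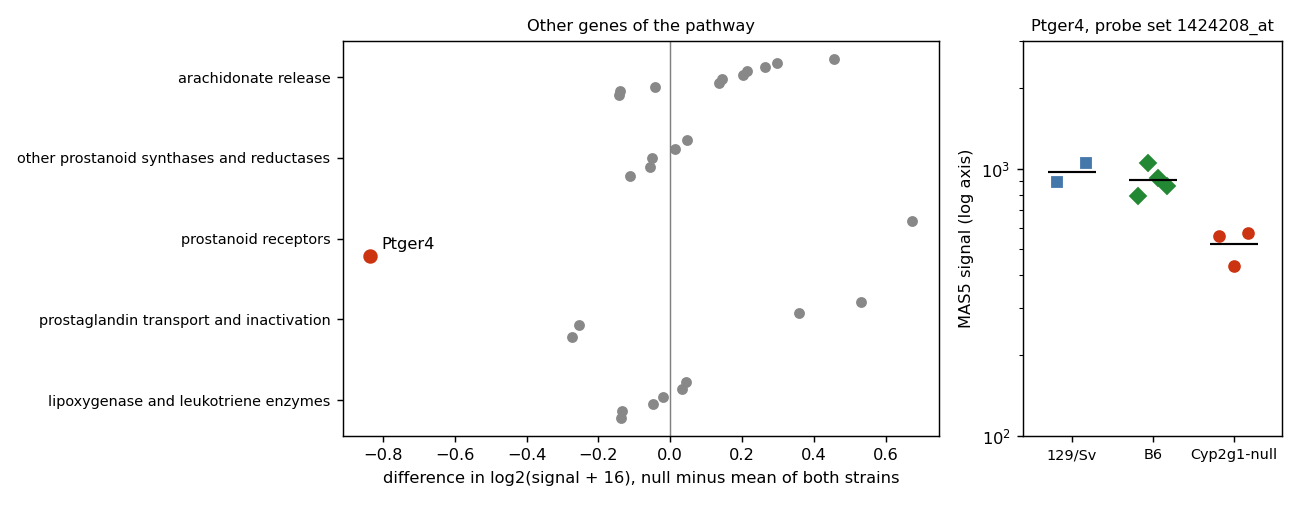
Left, null minus the mean of both strains in log2(signal + 16) for the 27 probe sets of the 5 pathway lists that passed the filter, with the called one, Ptger4 at -0.84, in red. Right, MAS5 signal (log axis) of Ptger4 on each array with group means as bars; the 3 null arrays, 431 to 573.6, lie below all wild-type arrays.

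The other receptors were dim. The receptor list held 11 genes, among them Ptgfrn, a receptor regulator that is not itself a receptor. Of these genes, 9 had no probe set above the array median on any array, including Ptgfrn and the prostaglandin D2 receptors Ptgdr and Ptgdr2. Ptgdr averaged 334.6, 191.2 and 254.8 in the order 129/Sv, B6 and null, and Ptgdr2 averaged 37.2, 82.75 and 47.3. Tbxa2r, the thromboxane receptor, had 372.2 ± 193.1 (SD, n = 2), 413.5 ± 105.1 (SD, n = 4) and 614.6 ± 120.7 (SD, n = 3), and its difference of 0.67 from the mean of both strains did not pass (limma adjusted p = 0.409).

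Among enzymes that release or break down lipid precursors, 10 probe sets passed the filter and 0 were called against B6, 129/Sv or their mean in limma, with 1, 0 and 1 at an unadjusted p under 0.05. Pla2g12a, a secreted phospholipase, averaged 4151 in 129/Sv, 4410 in B6 and 3890 in null glands. Faah, a hydrolase of fatty acid amides, had 1734, 1705 and 2067. All null arrays exceeded all wild-type arrays for Faah, but its difference of 0.26 from the mean of both strains did not pass (adjusted p = 0.373).

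Of the other prostanoid synthases and reductases, 5 probe sets passed the filter and 0 were called in the same comparisons in limma, with 1, 0 and 0 at an unadjusted p under 0.05. Cbr2, a carbonyl reductase of airway tissue, averaged 41380 in 129/Sv, 31200 in B6 and 34580 in null glands. Its B6 minus 129/Sv difference of -0.42 had an adjusted p of 0.0698. Cbr1, a carbonyl reductase that acts on prostaglandin E2, had 4003, 3888 and 3973.

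For transport and inactivation 4 probe sets passed the filter and 0 were called in limma in the null comparisons, with 0, 1 and 0 at an unadjusted p under 0.05. Ptgr1, a reductase of prostaglandin metabolites, averaged 4509 in 129/Sv, 3432 in B6 and 3214 in null glands. Probe set 1451744_a_at of Ptgr2, a related reductase, had 1266, 1087 and 998.5. Among 6 probe sets of lipoxygenase and leukotriene enzymes 0 were called in limma in the null comparisons, and 0 had an unadjusted p under 0.05. Lta4h, the leukotriene A4 hydrolase, had 2936, 3380 and 3222, and Alox12, an arachidonate lipoxygenase, had 1296, 995.8 and 1027 on probe set 1422699_at.

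Markers of cells known to express prostaglandin D synthases were set beside Ptgds. Of 12 mast cell genes 10, including the proteases Cpa3, Cma1, Tpsb2 and Tpsab1, did not exceed the array median on any array. The summed signal of the list was 3222 to 4698 in 129/Sv, 4344 to 6160 in B6 and 6311 to 6782 in null arrays. Hdc, histidine decarboxylase, was the largest part of the sum on every array. Its probe set 1454713_s_at gave 1722.8 and 2536.3 in 129/Sv, 2396.8 to 3301.2 in B6 and 3653.1 to 4154.5 in null arrays. The sum was not taken without Hdc. Called members of the list were the 2 probe sets of Hdc, higher in null than in 129/Sv arrays (limma adjusted p = 0.0257 and 0.0153). Against the mean of both strains 1454713_s_at was called (0.66, adjusted p = 0.0323) and 1451796_s_at was not (adjusted p = 0.0521). Over all probe sets 1.41% and 0.755% were called higher in these comparisons. Both Hdc probe sets failed the test against B6 (adjusted p = 0.228 and 0.149). In all, 5 of the 16 mast cell probe sets had every null array above every wild-type array. The 2 of Hdc were among them, and 0 of the 16 had every null array below. Over all probe sets that passed the filter the share above was 2.90%, and no share is given for dim probe sets. Dim ones among the 5 included Tpsab1, 3.75-fold above B6 and 2.87-fold above 129/Sv, and Mcpt4, 2.93-fold and 3.98-fold. Other dim probe sets of the list were lower in null than in B6 glands. Examples were Tpsb2 probe set 1451802_at (2.2-fold), Fcer1a (1.83-fold), Kit probe set 1415900_a_at (1.74-fold) and Mcpt1 (1.5-fold). All of these were below the array medians and not tested. Genes of macrophages and neutrophils summed to 38410 to 44510, 34070 to 37750 and 41050 to 47590 in 129/Sv, B6 and null arrays, of which Lyz2, a lysozyme, gave 22601 to 36646.1. Of the 14 probe sets of that list, Lyz2 was called higher against B6 (0.495, limma adjusted p = 0.0115) but not against 129/Sv (0.08). C1qb probe set 1434366_x_at was called higher against 129/Sv (0.845, adjusted p = 0.0143) but not against B6 (0.15). Both also differed between the strains, with B6 minus 129/Sv at -0.416 for Lyz2 (limma adjusted p = 0.0343) and 0.694 for C1qb (adjusted p = 0.0174). The list's median difference from B6 was -0.26. Of 11 genes of meninges and choroid plexus, 6 did not exceed the median on any array, Ttr among them. The sums were 15610 to 16170, 13590 to 16540 and 13050 to 13930, and 1 of 6 probe sets, 1 of the pair for Foxc1, was called lower against 129/Sv (adjusted p = 0.0448). For 10 nerve and glia genes the sums were 13470 to 13940, 11980 to 14010 and 14000 to 14560, and 0 of 11 probe sets were called in the null comparisons in limma, with 3, 1 and 2 at an unadjusted p under 0.05 against B6, 129/Sv and their mean. Stromal genes summed to 81790 to 84690, 92760 to 114400 and 79740 to 93740. Of their 14 probe sets, 4 were called lower against B6 and 1, for Fbln1, against 129/Sv (limma adjusted p = 0.0442). Over all probe sets 1.07% and 0.628% were called lower. Between the strains 3 of the 14 were called higher in B6, beside 2.92% of all. The median stromal difference was -0.41 against B6, -0.02 against 129/Sv and 0.47 for B6 minus 129/Sv. The part of these cells in the Ptgds values was not tested.

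Parts of other lists were called in the same null comparisons, in which 1.11%, 1.41% and 0.755% of all probe sets were called higher and 1.07%, 0.628% and 0.469% lower. Of 7 cilia and respiratory epithelium genes, all had higher null means than either strain, and 4, 0 and 3 passed against B6, 129/Sv and their mean. Their sum was 13700 to 16060 in 129/Sv, 12370 to 15390 in B6 and 19690 to 20750 in null arrays. Of 16 immediate early probe sets, 4, 3 and 4 were called higher in these comparisons and 0 lower, and the sums of null arrays 1 and 3 were close to that of 129/Sv array 2. Of 18 clock and clock output probe sets, 2, 5 and 4 were called lower, and 0, 1 and 0 higher. Their sum was 44640 to 53260 in 129/Sv, 24770 to 39030 in B6 and 21480 to 23060 in null arrays. Dbp, named above with Tef and Hlf for the D box, had on probe set 1418174_at 4361.8 and 6508.2 on the 129/Sv arrays, 3122.6, 1750.5, 1102.2 and 3743 on those of B6, and 568.3, 537.5 and 603.1 in null arrays. Values of its other probe set, 1438211_s_at, and of Tef and Hlf are not given. The part of the genes of these lists in the Ptgds values was not tested.

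**Figure D5:**
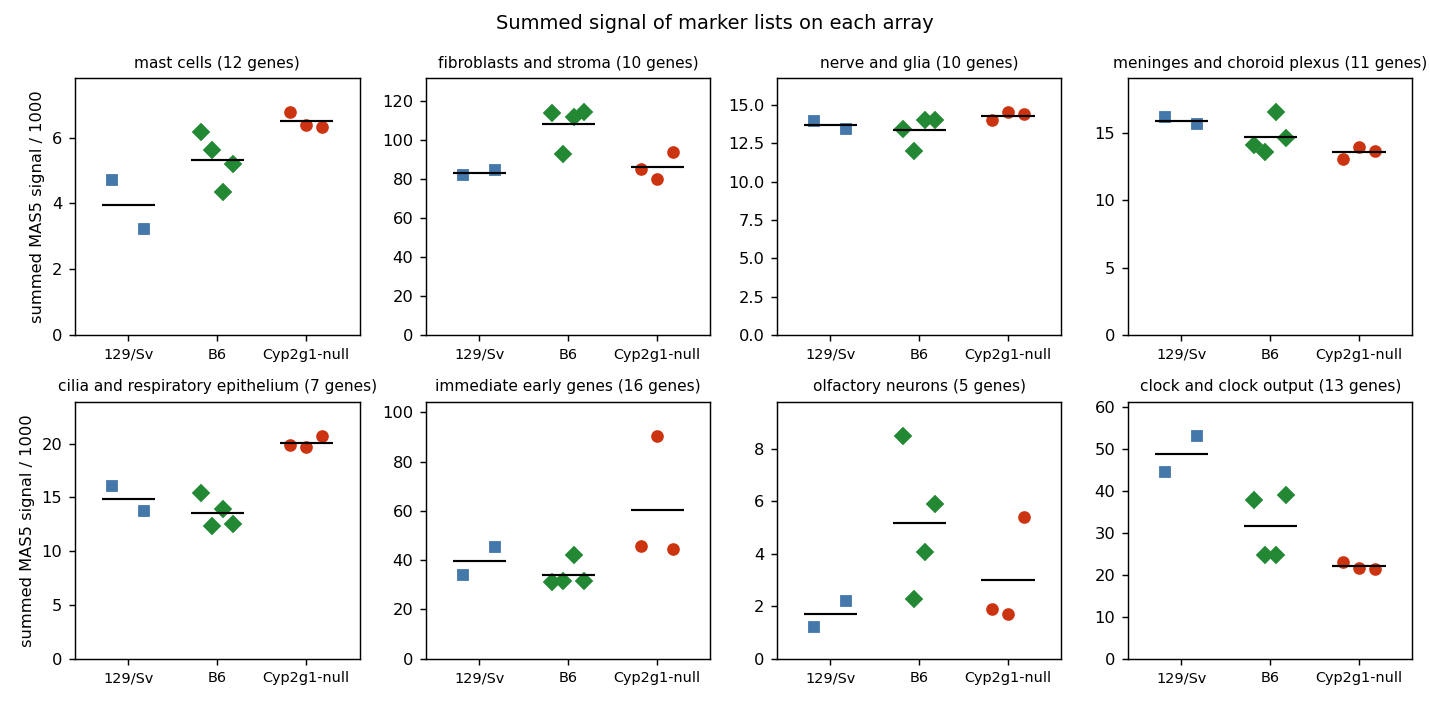
Summed MAS5 signal, divided by 1000, of 8 gene lists on each array, by group (1 probe set a gene, axes from 0, bars are group means). Cilia genes are higher and clock genes lower on all null arrays than on any wild-type array, and null array 2 stands alone for immediate early genes. The mast cell sum of the null arrays also lies above the wild-type range, with Hdc its largest part on every array.

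The tissue label and the genotype labels were checked. Of 8 gland secretion genes on the array, 6 exceeded the array median on all 9 arrays, with Obp1a, an odorant-binding protein, between 112206.1 and 150146.2. Car6, a secreted carbonic anhydrase, did so on 8, with 387.5 to 70057.5, and Lcn4 on none. Of the 7 that passed the filter, 1, 2 and 2 were called higher in limma against B6, 129/Sv and their mean. Called lower were 1, 0 and 1. Against B6, Car6 was 26.1-fold higher (adjusted p = 0.0158) and Lcn3 2.17-fold lower (adjusted p = 0.00335). Relative to 129/Sv the Car6 difference was 0.955 (adjusted p = 0.831). Scgb1b27 and Scgb2b27 were 6.32-fold and 4.13-fold above 129/Sv, and both were called higher in B6 than in 129/Sv. Olfactory neuron genes, which mark the neighbouring sensory epithelium, summed to 1207 to 2198 in 129/Sv, 2278 to 8496 in B6 and 1709 to 5387 in null arrays. Omp, the olfactory marker protein, gave 41.1 to 2920.3 on probe set 1422199_at. Cyp2g1, on chromosome 7, gave 55.7 to 201.1 on null and 207.5 to 5916.8 on wild-type arrays. It passed against B6 (-4.07, limma adjusted p = 0.00268) but not against 129/Sv (-1.81, adjusted p = 0.325), and B6 array 1 was the highest array for both Cyp2g1 and this Omp probe set. Ptgds lies on chromosome 2. Pearson correlations between arrays ran from 0.925 to 0.942 across probe sets, which are not independent replicates, and 0 pairs were identical.

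The genes whose pattern over the 9 arrays was most like that of 1423859_a_at were sought among 11601 probe sets, as a description. The other Ptgds probe set had a Pearson r of 0.946 with it. The 8 most alike were Golm1 (r = 0.952), Anxa2 (0.937), Slc2a5 (0.916), Cp (0.908), Dusp14 (0.907), Slc16a7 (0.899), Ermp1 (0.899) and Gp2 (0.897). All 8 had every null array above every wild-type array, so the likeness rests on the difference between null and wild-type groups that Ptgds was chosen for. Slc2a5, a fructose transporter, averaged 437 in 129/Sv, 530.8 in B6 and 995.9 in null glands. Golm1, a Golgi membrane protein, had 1309, 1283 and 1956, and Gp2, a glycoprotein of secretory granules, had 5466, 5139 and 8991. Each of these moved by less than Ptgds.

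When each group's mean was taken off, the other Ptgds probe set had r = 0.614. The 8 probe sets most alike were then Uck1 (r = 0.952), Rchy1 (0.952), Pcna (0.943), Zdhhc6 (0.942), Ftsj1 (0.929), Fkbp15 (0.926), Aqp4 (0.923) and Lamtor5 (0.921), none of which is among the 8 above. With 9 arrays and so many probe sets compared, high values arise readily, and these are descriptions. Taking off the group means leaves fewer free values than arrays, and the deviations of the 129/Sv pair are equal and opposite. The genes beside Ptgds on chromosome 2 had little signal. Of the 3 neighbours on each side, Clic3, a chloride channel protein, and C8g, a lipocalin of the complement system, had probe sets. Neither passed the signal filter, and in the order 129/Sv, B6 and null their signals averaged 141.7, 199.3 and 129 for Clic3 and 212.9, 322.8 and 341.8 for C8g.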

How the data were processed

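The authors deposited signal intensity values on a linear scale, 1 for each probe set and array. They were computed with MAS5, per the submitters' processing notes, with no version given. The mean intensity without the outer 2% on either side was 1500.6 on all 9 arrays, as after global scaling, and medians were 518.55 to 550.05. Detection calls were not used. All 9 columns were matched to samples by their labels, and each pool of 10 mice was 1 replicate. The labels and design text do not say that the pools of a group were of different mice, so p-values measure the spread between arrays. Nothing in the labels gives a batch.

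After 64 control probe sets were left out, signals were converted to log2(signal + 16). Probe sets above their array's median on at least 2 arrays (12575) were fitted one by one with limma 3.58.1 in R 4.3.3 (a mean per group, eBayes with trend), with 1 spread shared by all groups and two-sided p-values adjusted by Benjamini-Hochberg. In simulated data over 12575 probe sets, 75% of 2-fold and 97% of 4-fold changes against B6 were recovered, with 6 false calls, and 61% and 96% against 129/Sv, with 4. The changes were placed in the null group only, in normal noise of each probe set's own spread, with no strain difference. They fell on probe sets drawn at random from all that passed the filter, so the shares do not describe the dim members. Genes were named by the platform annotation, updated through a RefSeq gene table (GRCm38.p6). Named are all members, the called probe sets of each pathway list or else its 2 with the highest mean signal, the probe sets most like Ptgds, its neighbours, and markers that move with a member. The members and gene lists were chosen with earlier results of these data known.

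The fit was repeated with other scalings (quantile normalization, arrays set to 1 median), pseudocounts of 1 and 64, no signal filter, a filter at the 75th percentile, 1 probe set a gene, eBayes without trend, array weights, only the groups compared, the replicate number as a block, thresholds of 0.01 and 0.1, and each array left out. The number of arrays limits the precision.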

Additional observations from a re-analysis of the deposited data

Results flagged for a closer look

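For Ptgs2 probe set 1417262_at, B6 array 2 (98.7) stood apart from the other B6 arrays (14.8 to 18.8): on the log2 scale the gap was 0.907 of the group's range. Chance flags about 1 in 20 groups, and 11 were examined. All these signals lie below the array medians.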

How the results depend on the processing

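The Ptgds differences moved by less than the spread between arrays in every alternative tried, from 2.23 to 2.59 against B6, 1.99 to 2.76 against 129/Sv and 2.20 to 2.59 against the mean of both strains. With the replicate block they were 2.56, 2.48 and 2.52. Same-numbered arrays did not deviate together (r from -0.075 to 0.096 over 7 pairs), so the numbers were not taken to pair them, and under the block the Ptger4 adjusted p was 0.11 against B6 and 0.0707 against the mean. No other member was called in any null comparison under any alternative. Of the pathway probe sets, 1 was called against B6 (Ptger4) and 0 with no filter, the 75th percentile filter, the replicate block, only the groups compared or a threshold of 0.01, and 0 to 1 with an array left out. Against the mean the count of 1 became 0 with no filter, the 75th percentile filter, the block or the 0.01 threshold, and 0 to 1 with an array left out. Against 129/Sv the count of 0 became 1, again Ptger4, with quantile normalization, equal medians, eBayes without trend, array weights or a threshold of 0.1, and 0 to 1 with an array left out. Between the strains it became 1 (Cbr2) with quantile normalization, equal medians, array weights or the 0.1 threshold. With an array left out it was 0 to 2, as Cbr2 and Ptgr1 passed without B6 array 1 and Cbr3 without B6 array 2, and the member count was 0 to 1. Ptger4 was not tested under the 75th percentile filter, which it did not pass; the cause of the other changes was not tested. The second Ptgds probe set moved to 2.01 and 3.28 against 129/Sv without 129/Sv array 1 and 2. With equal medians the split of all calls against 129/Sv went from 177 higher and 79 lower to 139 and 111, and against the mean from 95 and 59 to 81 and 80. Only the groups compared is the same fit for the mean of both strains and was not run there. Over all probe sets 274, 256, 154 and 653 were called against B6, 129/Sv, their mean and between the strains. Counts over 1.5 times apart from these were, in the same order, 154, 166 and 59 without trend for the null comparisons, 490 (B6) and 291 (mean) with array weights, 165 (129/Sv), 96 (mean) and 407 (strains) with 1 probe set a gene, 490, 392 and 271 at a threshold of 0.1, and 129, 125, 52 and 345 at 0.01. With 1 probe set a gene 7487 probe sets were tested, not 12575, so those counts are out of fewer. With an array left out the counts over all probe sets ran from 153 to 611, 127 to 326, 58 to 292 and 341 to 863. Most members lie at or under the array medians, where a signal says little about level.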
